A study of Mus musculus with 30 samples.

Results

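Immediate early genes are the genes a cell transcribes within minutes of a stimulus, without first making new protein. Neuronal firing, growth factors and cytokines act through calcium and MAP kinase signaling on factors already present, such as CREB and SRF, and the products of the first wave (the AP-1, EGR and NR4A transcription factors, and effectors such as Arc) set the later response. In brain they are used as markers of recent neuronal activity, and several of them are also induced in microglia and other cells when tissue is dissociated. The members described here were 10 genes picked by symbol, Fos, Fosb, Junb, Egr1, Egr2, Arc, Npas4, Nr4a1, Ier2 and Dusp1, and all 10 were among the 23993 genes of the deposited table.

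The libraries were RNA-seq of tdTomato-tagged cells sorted by FACS from the medial prefrontal cortex of mice 6 to 12 weeks old. All mice were heterozygous for a Cre-dependent tdTomato reporter (Ai9) driven by Cre at the Sst or the Pvalb locus, so that the tag marks any cell in which that Cre was once active. The samples used were control Sst females (7), control Sst males (7 libraries), Sst males after 14 days of chronic unpredictable stress (CUS, a changing series of mild stressors such as restraint, wet bedding or a tilted cage, 3) and control Pvalb males (7 libraries). Control Pvalb females and females of either line after CUS are not analysed here. The PFC was digested with papain for 20 min at 37 °C before the sort, in every group.

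Values are FPKM, fragments scaled for gene length and for the total of a library, and differences are log2 fold changes on the log2(FPKM + 1) scale with their standard error (SE). Male Sst controls had titles of 2 kinds. Those with a short running number (SST0-M, SST1-M and 2 more, SST3-M and SST4-M), like 6 of the 7 female titles, are called numbered. SST-F, which has no number, was put with them. Those with a longer number (SS04031R, SST040241L, SST04241LL), like all 3 CUS titles, are called dated. SS04031R shares the start of its title with the CUS libraries (SS04031LL, SS04031RL and SS04031RR), and the other 2 dated controls do not. What the titles stand for is not given in the sources used here. The libraries SST0-M and SST1-M held nearly the same values, as did PV0-M and PV2-M, and each pair was averaged and counted as 1 sample, which left 22 samples from 24 libraries.

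Several libraries stood apart from their labels or their group. The defining markers of the sorted cells were low: Gad2, an enzyme of GABA synthesis, was at most 4.33 FPKM in any sample, and Sst had a higher median in Pvalb samples (24.9 FPKM) than in numbered male Sst samples (0.842 FPKM). The microglial receptor P2ry12 ranged from 224 to 984 FPKM, and the levels below are therefore those of the mixed RNA of each sort. PV1-M, PV4-M and PV5-M, labelled male, had 300.2 to 333 FPKM of Xist, the RNA of the inactive X chromosome. Small nucleolar RNA genes took 53.5% to 75.7% of the summed FPKM in the dated libraries and 1.87% to 8.29% in all others. SST-F differed from the other females (SD of log2 ratios at least 0.623, against 0.218 to 0.256 for the closest pairs of the others), and SS04031R from the other male controls (at least 0.635). In bulk samples of this kind, fewer cells of a type and less RNA per cell cannot be told apart.

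The stretches before the start sites of 5 members are shown because the results below turn on these genes and because CREB, the calcium-responsive activator, reads the letters marked in them. Each is the 250 bases before a RefSeq start (GRCm38.p6, the mm10 assembly), 5′ to 3′ on the gene's strand. For Fosb and Nr4a1 that start lies inside the locus given below, not at its edge. TGACG or its reverse complement CGTCA, the core of the cAMP response element (CRE), is in capitals.
Fos, chr12:85473640-85473889, plus strand: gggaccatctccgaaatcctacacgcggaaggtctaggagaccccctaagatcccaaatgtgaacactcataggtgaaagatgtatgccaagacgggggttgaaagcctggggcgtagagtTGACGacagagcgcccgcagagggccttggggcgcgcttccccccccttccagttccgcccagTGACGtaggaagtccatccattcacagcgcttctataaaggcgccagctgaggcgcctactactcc
Fosb, chr7:19310046-19310295, minus strand: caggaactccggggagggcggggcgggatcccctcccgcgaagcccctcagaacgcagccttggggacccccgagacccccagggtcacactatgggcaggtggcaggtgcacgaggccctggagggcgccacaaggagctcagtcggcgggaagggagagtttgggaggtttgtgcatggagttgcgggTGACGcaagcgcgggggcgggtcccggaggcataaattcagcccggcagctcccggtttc
Junb, chr8:84978749-84978998, minus strand: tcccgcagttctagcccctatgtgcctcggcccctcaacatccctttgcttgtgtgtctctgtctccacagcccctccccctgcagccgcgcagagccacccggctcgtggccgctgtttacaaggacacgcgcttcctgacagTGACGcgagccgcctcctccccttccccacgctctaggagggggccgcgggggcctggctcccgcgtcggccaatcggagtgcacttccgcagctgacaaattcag
Nr4a1, chr15:101266596-101266845, plus strand: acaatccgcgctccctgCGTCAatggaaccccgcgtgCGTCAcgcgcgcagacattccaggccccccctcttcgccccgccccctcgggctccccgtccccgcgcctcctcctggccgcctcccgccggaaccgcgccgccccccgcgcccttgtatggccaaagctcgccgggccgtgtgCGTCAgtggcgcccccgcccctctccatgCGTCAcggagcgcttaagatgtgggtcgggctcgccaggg
Dusp1, chr17:26508473-26508722, minus strand: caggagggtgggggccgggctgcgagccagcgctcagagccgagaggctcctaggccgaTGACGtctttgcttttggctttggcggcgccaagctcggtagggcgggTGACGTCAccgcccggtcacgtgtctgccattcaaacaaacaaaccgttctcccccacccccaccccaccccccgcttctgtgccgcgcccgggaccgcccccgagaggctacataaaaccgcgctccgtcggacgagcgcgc
RefSeq starts were at hand for 7 of the 10 members (these 5, Egr2 and Npas4), and each of the 7 had at least 1 such core before at least 1 of its starts. Over all 27025 genes with a start in the same table, 19.8% had one. In Nr4a1 there were 4 cores and in Dusp1 3, of which the 2 nearest the start overlap in the full element TGACGTCA, held by 1.77% of all genes and by Dusp1 alone of the 7. GCGNGGGCG, the letters read by EGR proteins, was found on either strand in Fosb and Nr4a1, against 5.33% of all genes. The CArG box bound by SRF was found in Egr2 only (1.62% of all genes). TGANTCA, the AP-1 site, was in none of the 7 windows (7.82% of all genes), and TATAAA on the gene's strand was in Fos only, beginning 33 bases before the start (8.94% of all genes). A match describes letters, not binding.

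The members differed widely in level. Egr1, a zinc finger factor on chromosome 18, was among the most abundant messages of these libraries, from 222 to 2443 FPKM, and ranked between 3 and 132 among all genes of a library. Dusp1, a phosphatase that switches off MAP kinases (chr17:26505591-26508472), ranged from 53.4 to 860.1 FPKM. Fos, the founding AP-1 subunit (chr12:85473890-85477274), ranged from 95.3 to 339 FPKM. Fosb (chr7:19302696-19310118) ranged from 26.9 to 256 FPKM and Junb, a partner of Fos proteins (chr8:84976909-84978748), from 19.0 to 234.5 FPKM. Ier2 ranged from 16.8 to 80.4 FPKM, Egr2 from 3.9 to 45.6 FPKM and Nr4a1 from 2.24 to 50.3 FPKM. Of the neuronal members, Npas4 was the lowest of all, while Arc was low together with Egr2 and Nr4a1. Nr4a1 had a lower median than Arc in Pvalb samples (3.21 against 10.3 FPKM) and in females (3.76 against 4.62 FPKM), but not in the other groups. Arc, a synaptic effector that removes AMPA receptors (chr15:74669081-74672570), ranged from 1.63 to 16.1 FPKM. Npas4, a factor whose induction is specific to neurons (chr19:4984353-5003439), was listed at 0 in all females, all dated males and all CUS males, and reached 0.324 FPKM at most, in PV3-M. It passed the filter on low values (a mean above 0.4 FPKM) in no comparison, so 9 of the 10 members were tested in each. The locus of Egr2 is the only one of the 10 that overlaps another RefSeq gene (Gm32255).

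**Figure D1:**
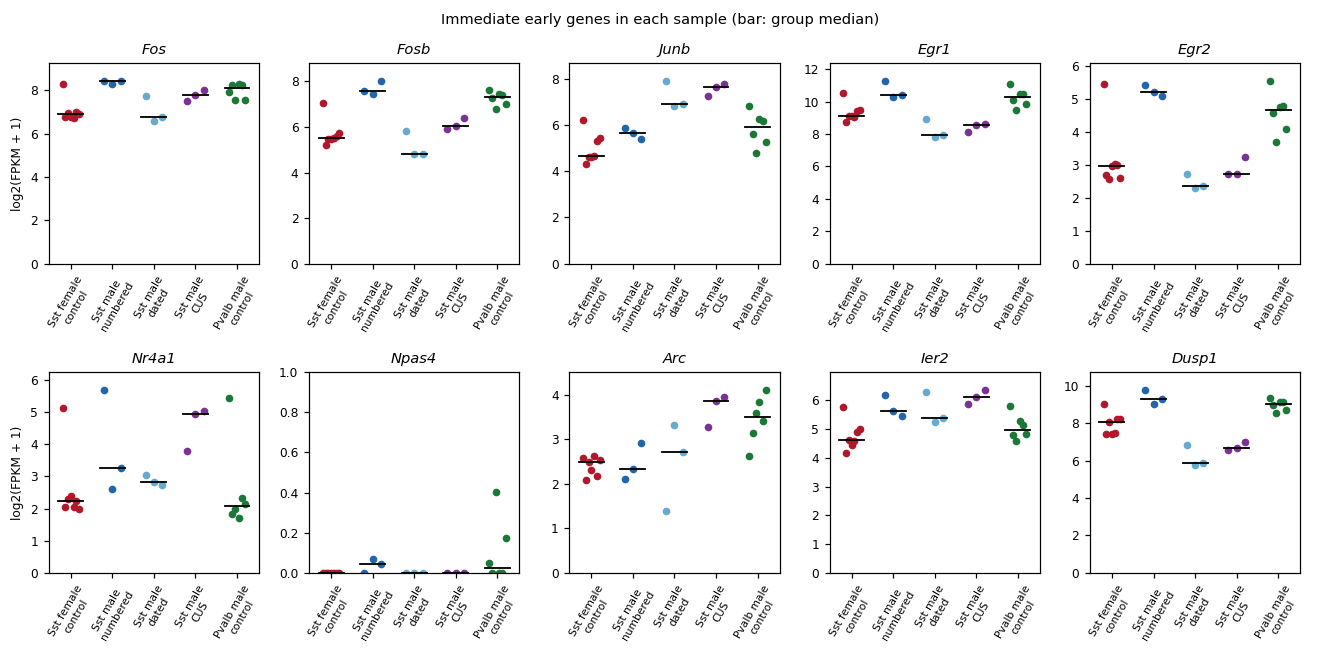
Level of each member, as log2(FPKM + 1), in the 22 samples by group, with 1 point per sample and a bar at the group median. Fos, Fosb, Egr1, Egr2 and Dusp1 were higher in numbered male Sst samples than in dated ones. In every member but Arc and Npas4, 1 female, SST-F, lay above the other 6.

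The first comparison asked how the members differ between unstressed female and male Sst mice. Against numbered males, 3 of the 9 tested members passed the threshold (limma adjusted p under 0.05 over all genes), and all 3 were lower in females. Of all 14443 genes tested, 3.41% passed, 1.66% as lower. All 9 had a negative log2 fold change, with a median of -1.31 against 0.05 over all genes tested. The lowest, median and highest Fosb in females were 36.0, 44.7 and 131 FPKM, and the 3 male samples had 175, 193 and 256 FPKM. The groups did not overlap, and the log2 fold change was -1.96 ± 0.33 (SE, limma adjusted p = 0.0173). Fos had 104, 118 and 313 FPKM in females (lowest, median, highest) and 307, 338 and 339 FPKM in the males. SST-F alone reached into the male range, and the difference was -1.31 ± 0.31 (SE, limma adjusted p = 0.0437). Dusp1 had 169, 270.5 and 519.5 FPKM in females against 527, 616 and 860.1 FPKM in males. These groups did not overlap either, though SST-F lay just under the lowest male, and the difference was -1.37 ± 0.34 (SE, limma adjusted p = 0.0483).

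The zinc finger members had fold changes of the same size with adjusted p just above the threshold. Egr1 had 427, 546 and 1464 FPKM in females and 1243, 1383.5 and 2443 FPKM in males, a difference of -1.31 ± 0.35 (SE, limma adjusted p = 0.0582). Egr2, a related factor, had 4.98, 6.89 and 42.6 FPKM in females and 32.9, 36.1 and 42.1 FPKM in males, a difference of -2.05 ± 0.52 (SE, limma adjusted p = 0.0518). For both genes SST-F was the only female inside or above the male range. Ier2, a small nuclear protein of the same early wave (chr8:84661331-84662852), had a log2 fold change of -0.97 ± 0.30 (SE, limma adjusted p = 0.0900), and Junb one of -0.62 ± 0.36 (SE, limma adjusted p = 0.305). Nr4a1, an orphan nuclear receptor (chr15:101253902-101274795), was split within both groups. It had 5.11 and 8.52 FPKM in SST3-M and SST4-M but 50.3 FPKM in the averaged pair, and 2.99 to 4.28 FPKM in 6 females but 34.1 FPKM in SST-F. Arc had 3.26, 4.62 and 5.20 FPKM in females and 3.31, 4.01 and 6.49 FPKM in males, a log2 fold change of -0.05 ± 0.24 (SE, limma adjusted p = 0.921).

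The number of members that passed changed when single samples were left out, which also made the groups smaller. Without SST-F, an exclusion chosen after its values were seen, Fos, Fosb, Egr1, Egr2, Ier2 and Dusp1 were lower in females (6 of 9 tested), while 12.4% of all genes passed, 5.86% as lower. Without the averaged pair, SST3-M or SST4-M in turn, Fosb alone of the 9 members passed, while 6.22%, 0.692% and 7.55% of all genes did. No female title has a longer number, so a comparison within the dated kind cannot be made. Against dated males, the same females were higher in Dusp1 by 1.83 ± 0.36 (SE, limma adjusted p = 0.00169) and in Egr1 by 1.12 ± 0.36 (SE, limma adjusted p = 0.0257). Ier2 (-0.85 ± 0.32 SE, limma adjusted p = 0.0499) and Junb (-2.19 ± 0.39 SE, limma adjusted p = 0.000881) were lower, Fos had a log2 fold change of 0.03, and 41.5% of all genes passed. Against all 6 male samples, 2 members passed, Ier2 and Junb, both lower, while 11.7% of all genes passed. Junb, Nr4a1, Arc and Ier2 were negative against the numbered, the dated and all males, though Arc was 0.18 when SST4-M was left out.

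**Figure D2:**
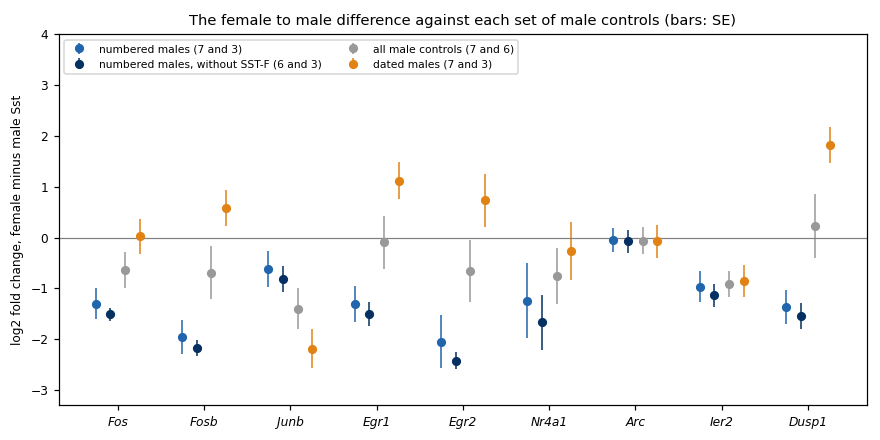
Log2 fold change of 9 members in female against male Sst controls, with SE bars, against 4 choices of samples (numbers of female and male samples in brackets). For Fos, Fosb, Egr1, Egr2 and Dusp1 the sign turned between numbered and dated males, while Ier2 stayed between -1.14 and -0.85.

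Other genes moved beside the members in this comparison. Of 33 other immediate early genes, 29 were tested and 6 fell, with none rising. The largest falls were those of Gadd45b, a stress sensor (-2.53 ± 0.62 SE, limma adjusted p = 0.0491), and the Krüppel-like factors Klf2 (-2.30 ± 0.33 SE, limma adjusted p = 0.00681) and Klf4 (-1.66 ± 0.26 SE, limma adjusted p = 0.0118). Of 20 genes known to rise in brain cells during enzymatic dissociation, 4 fell. The largest falls were those of the chaperones Hspa1a (-2.51 ± 0.44 SE, limma adjusted p = 0.0174), Hspa1b (-1.95 ± 0.31 SE, limma adjusted p = 0.0147) and Dnajb1 (-1.90 ± 0.23 SE, limma adjusted p = 0.00229). None of 30 upstream kinases and factors passed (7 positive and 23 negative, median -0.23), and none of the 11 late-response genes tested. All 11 microglia markers were negative and 5 passed as lower in females, among them Cx3cr1 (-1.16 ± 0.26 SE, limma adjusted p = 0.0416) and Csf1r (-1.05 ± 0.20 SE, limma adjusted p = 0.0214). The summed level of the 11 markers was 3046 to 5531 FPKM in females and 6062 to 9838.5 FPKM in numbered males. All 6 endothelial and pericyte markers were positive, and Cldn5, a tight junction protein (1.92, limma adjusted p = 0.000680), and Pdgfrb (1.49, limma adjusted p = 0.00267) were higher in females. The summed level of these 6 was 109 to 203 FPKM in females and 36.0 to 184 FPKM in numbered males. The 6 oligodendrocyte markers were also all positive, with Mobp, a myelin protein, past the threshold (0.81, limma adjusted p = 0.0493), as were the 6 astrocyte markers (0.03 to 0.65, none past it). Of 9 interneuron markers tested 7 were positive and 2 negative (median 0.50), with none past the threshold. Sst had the highest log2 fold change of these (2.26, limma adjusted p = 0.0912). Of 6 general neuronal markers 2 were positive and 4 negative, and of 5 excitatory neuron markers 3 and 2, with none past it. The part of these cell types was not tested. With the microglia marker mean as a covariate no member passed (limma), while 53 of 14443 genes did. An unadjusted p under 0.05 was found for 1 of 9 members (Fosb, -1.31 ± 0.57 SE) and 19.5% of all genes. Of the 9 members 7 were negative, and the median of the 9 was -0.69. The covariate was 7.87 to 8.53 in females and 8.73 to 9.56 in numbered males. It did not overlap between the sexes, so it and sex are partly confounded in this fit.

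The second comparison set numbered Sst controls of both sexes against Pvalb males. Line and sex are partly confounded here, since all 6 Pvalb samples are labelled male and 7 of the 10 Sst samples are female. A single member passed of the 9 tested, Arc, against 10.2% of all 14483 genes (5.34% lower). Arc had 3.26 to 6.49 FPKM in the 10 Sst samples and, in Pvalb samples, 5.20, 10.3 and 16.1 FPKM (lowest, median, highest). The groups overlapped in the averaged Pvalb pair, which was the lowest Pvalb sample. The log2 fold change of Sst against Pvalb was -1.04 ± 0.21 (SE, limma adjusted p = 0.00732). Of the 6 general neuronal markers 5 were negative and 1 positive, and 2 passed as lower in Sst. These were Snap25, a synaptic fusion protein (-1.48, limma adjusted p = 0.0418), and Rbfox3 (-1.77, limma adjusted p = 0.0363). The kinase Camk2a, from the list of upstream kinases and factors, was also lower in Sst (-2.12, limma adjusted p = 0.0300). So was Slc17a7, the glutamate transporter of excitatory neurons (-1.76, limma adjusted p = 0.0210). Of 9 interneuron markers tested 6 were negative and 3 positive (median -0.14), and Pvalb alone passed (-1.40, limma adjusted p = 0.00845). Sst had a log2 fold change of -1.63 (limma adjusted p = 0.0876), against the label of the line. The summed level of the 6 general neuronal markers was 29.2 to 264 FPKM in Pvalb samples, 41.0 to 212 FPKM in females and 68.3 to 114 FPKM in numbered males, with none at 0 in a whole group. Their part in the Arc difference was not tested.

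The other members depended on which Sst samples were used. In the 7 females alone, Arc, Fos, Fosb, Egr1, Egr2 and Dusp1 were lower than in Pvalb samples (6 of 9, against 25.1% of all genes, 12.2% lower). In the 3 numbered males alone, no member passed (limma), while 0.0912% of all genes did. An unadjusted p under 0.05 was found for 2 of 9 members and 14.2% of all genes. Of the 9 members 7 had a positive log2 fold change, and the median of the 9 was 0.41. These contrasts share the Pvalb samples. Fosb was -1.54 ± 0.25 (SE) in females against Pvalb samples and 0.42 ± 0.22 (SE) in numbered males against the same samples. Arc had similar values in both, -1.05 ± 0.21 (SE) and -1.004 ± 0.34 (SE), of which only the first passed (limma adjusted p = 0.00310 and 0.282). Without PV1-M, PV4-M and PV5-M, the Pvalb libraries with high Xist, no member passed (limma) and 9 of 14467 genes did, while Arc had a log2 fold change of -1.02 ± 0.28 (SE, limma adjusted p = 0.134), about as large as with them. Of the 6 endothelial and pericyte markers 4 were higher in Sst, led by Rgs5 (2.87, limma adjusted p = 0.0487) and Flt1 (2.82, limma adjusted p = 0.00475), and their part was not tested. Of the 11 microglia markers 10 were negative in Sst (2 passed). Their summed level was 6074.5 to 7550.1 FPKM in Pvalb samples, a range that numbered males overlapped (6062 to 9838.5 FPKM) and females lay below (3046 to 5531 FPKM). With their mean as a covariate no member passed (limma) and 85 genes did. Arc was then -0.93 ± 0.25 (SE, limma adjusted p = 0.0868), and the other 8 members lay between -0.23 and 0.73.

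Of the companion lists, 3 of 31 other immediate early genes tested were lower in Sst than in Pvalb samples and none was higher. These were Maff, a small MAF factor (-1.51 ± 0.28 SE, limma adjusted p = 0.00542), Myc (-1.09 ± 0.32 SE, limma adjusted p = 0.0361) and Socs3, a brake on cytokine signaling (-0.99 ± 0.26 SE, limma adjusted p = 0.0253). Of the 30 upstream kinases and factors 4 were lower. Camk2a, Camk2b (-2.04 ± 0.40 SE, limma adjusted p = 0.00652) and Rps6ka1 (-0.78 ± 0.20 SE, limma adjusted p = 0.0201) led them, and the calcium/calmodulin kinase gene Camk4 was the other. No late-response gene (12 tested) and no dissociation-response gene (20 tested) passed.

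The third comparison asked what 14 days of CUS did in Sst males, against controls with the same kind of title. No member passed the threshold, 3 of 9 had an unadjusted p under 0.05 (limma), and all 9 had a positive log2 fold change, between 0.20 and 1.73, with a median of 0.58 against 0.00 over all genes. Over all 14186 genes, 1 passed (0.00705%), and the unadjusted p was under 0.05 for 6.74%. Nr4a1 had 5.69, 6.05 and 7.21 FPKM in controls and 13.0, 29.8 and 32.1 FPKM after CUS. All CUS samples were above all controls, and the log2 fold change was 1.73 ± 0.33 (SE, limma adjusted p = 0.647, unadjusted p = 0.00118). Fosb had 26.9, 27.5 and 56.1 FPKM in controls and 59.0, 65.8 and 82.3 FPKM after CUS. These groups did not overlap either, with SS04031R the highest control, and the log2 fold change was 0.96 ± 0.30 (SE, limma adjusted p = 0.647). Arc had 1.63, 5.59 and 8.95 FPKM in controls and 8.61, 13.4 and 14.4 FPKM after CUS, so that the lowest CUS sample lay just under the highest control (1.21 ± 0.48 SE, limma adjusted p = 0.647). SS04031R was the lowest control of Arc, and without it the log2 fold change was 0.67 ± 0.25 (SE, limma adjusted p = 0.413).

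The remaining AP-1 and EGR members had smaller differences. Fos had 95.3, 109 and 208 FPKM in controls and 181, 218 and 255 FPKM after CUS (0.73 ± 0.32 SE, limma adjusted p = 0.647). Junb had 112, 120.0 and 234.5 FPKM against 153, 197 and 215 FPKM (0.34 ± 0.31 SE, limma adjusted p = 0.709), and Egr1 222, 241 and 493 FPKM against 273, 381.5 and 386 FPKM (0.20 ± 0.34 SE, limma adjusted p = 0.833). In each of these the highest control was SS04031R, and for Junb and Egr1 it lay above all CUS samples. Egr2 (0.44 ± 0.22 SE), Ier2 (0.48 ± 0.30 SE) and Dusp1 (0.58 ± 0.31 SE) had limma adjusted p of 0.647, 0.654 and 0.647. Leaving that library out, Fosb passed (1.30 ± 0.13 SE, limma adjusted p = 0.0183), all 9 members had an unadjusted p under 0.05, against 0.113% of all genes past the threshold and 10.4% at that unadjusted p. Fos then had 1.08 ± 0.14 (SE, limma adjusted p = 0.0519) and Dusp1 0.92 ± 0.13 (SE, limma adjusted p = 0.0561). The control arm was then 2 libraries, and since neither shares the start of its title with the CUS libraries, the title and the stress cannot be told apart in that fit. With the start of the title as a term, chosen after the values were seen, the CUS difference rests on SS04031R as the only control, assumed to vary like the other samples. Of the 9 members 5 were then positive and 4 negative, with a median of 0.05. Arc (2.29 ± 0.32 SE, limma adjusted p = 0.00107) and Nr4a1 (1.56 ± 0.48 SE, limma adjusted p = 0.0488) passed, against 34.0% of all genes.

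The sign of the CUS difference turned for 5 members when numbered controls took the place of dated ones. Against numbered male controls, Fosb (-1.57), Egr1 (-2.23), Egr2 (-2.34) and Dusp1 (-2.62) were lower after CUS and Junb (1.91) and Arc (1.24) higher on the log2 scale, 6 of 9 members past the threshold (limma), while 16.1% of all genes passed. Fos had a log2 fold change of -0.60 ± 0.21 (SE, limma adjusted p = 0.0967) there. Here the stress and the kind of title cannot be told apart. Against all 6 male controls no member passed, while 0.00698% of all genes did. An unadjusted p under 0.05 (limma) was found for 2 of 9 members and 7.47% of all genes. These comparisons share the CUS samples. Arc, Junb, Ier2 and Nr4a1 were positive against the dated, the numbered and all male controls, though Junb (-0.33) and Ier2 (-0.17) were negative with the start of the title as a term.

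**Figure D3:**
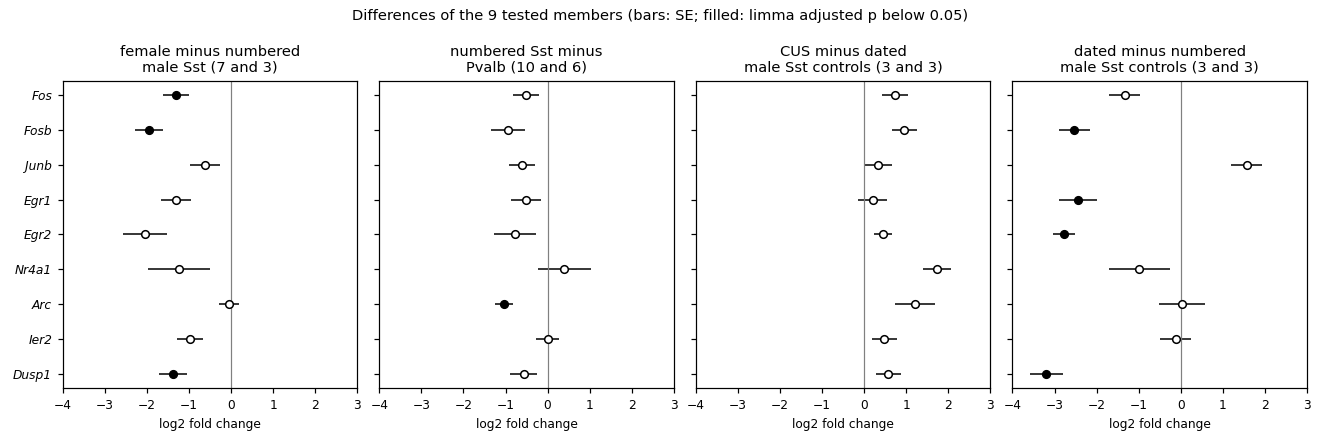
Log2 fold change of the 9 tested members with SE bars in each comparison (numbers of samples in brackets), filled where the limma adjusted p was under 0.05. All 9 were positive for CUS against dated controls with none filled, and all 9 were negative for females against numbered males with 3 filled.

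Of the other immediate early genes, 25 of 31 tested had a positive log2 fold change after CUS (median 0.48), and of the dissociation-response genes 16 of 18 (median 0.85), with none past the threshold. The 11 microglia markers tested were all negative, from -0.73 to -0.59 on the log2 scale. Their summed level was 3923 to 4705 FPKM after CUS and 4986 to 11188 FPKM in dated controls. The 6 oligodendrocyte markers (0.88 to 1.29) and 6 endothelial and pericyte markers (0.54 to 1.96) were all positive, and no marker passed the threshold. With the microglia marker mean as a covariate all 9 members stayed positive, with a median of 1.03. None passed (limma), while 8 of all 14186 genes did. An unadjusted p under 0.05 was found for 8 of the 9 members and 9.28% of all genes. The covariate was 9.54 in SS04031R, 8.41 and 8.53 in the other dated controls, and 8.06 to 8.29 after CUS. It did not overlap between controls and CUS, so it and the stress are partly confounded in this fit. Arc went from 1.21 to 0.21 ± 0.25 (SE, limma adjusted p = 0.842), and Fos was 1.31 where it had been 0.73. The part of the other cell types was not tested.

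The last comparison set dated against numbered male Sst controls, which carry the same label. Dusp1 (-3.20 ± 0.39 SE, limma adjusted p = 0.0110), Egr2 (-2.78 ± 0.27 SE, limma adjusted p = 0.00416), Fosb (-2.53 ± 0.37 SE, limma adjusted p = 0.0179) and Egr1 (-2.44 ± 0.45 SE, limma adjusted p = 0.0316) were lower in dated samples, each with a larger log2 fold change than in the other comparisons above. That was 4 of 9 tested, against 4.11% of all genes (2.30% lower). Dusp1 had 53.4, 57.5 and 113 FPKM in dated and 527, 616 and 860.1 FPKM in numbered samples. Junb lay the other way with no overlap, at 112, 120.0 and 234.5 FPKM in dated and 41.3, 48.9 and 57.6 FPKM in numbered samples, though it did not pass (1.57 ± 0.36 SE, limma adjusted p = 0.0561). Over 15 alternatives its adjusted p was 0.0136 to 0.171 (limma), under 0.05 in 6 of them. Without SST040241L or SST04241LL Egr2 alone passed, while 0.381% and 0.402% of all genes did. Without SST3-M or SST4-M Egr2 and Dusp1 passed, beside 0.536% and 0.976% of all genes. Of the dissociation-response genes 4 of 20 were lower in dated samples, the chemokines Ccl3 (-2.25 ± 0.47 SE, limma adjusted p = 0.0453) and Ccl4 (-2.14 ± 0.38 SE, limma adjusted p = 0.0289), Dnajb1 (-2.06 ± 0.42 SE, limma adjusted p = 0.0434) and Nfkbiz. Of the other immediate early genes 2 of 31 were lower, Zfp36, which destabilizes cytokine messages (-2.95 ± 0.48 SE, limma adjusted p = 0.0236), and Egr3 (-1.93 ± 0.38 SE, limma adjusted p = 0.0375), and of the upstream factors Atf1 (-1.65 ± 0.27 SE, limma adjusted p = 0.0233) and Rps6ka3 (-1.40 ± 0.30 SE, limma adjusted p = 0.0488). The neuronal marker Snap25 was lower in dated samples (-2.17, limma adjusted p = 0.0105). The 6 general neuronal markers, 5 of them negative, summed to 26.2 to 26.8 FPKM in dated and 68.3 to 114 FPKM in numbered samples, with none at 0 in a whole group, and 8 of 11 microglia markers were negative with none past the threshold. These markers and the small nucleolar RNA share of the dated libraries, given above, moved with this contrast, and their part was not tested.

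Within groups most members varied together from sample to sample. After each group's mean was subtracted, Pearson's r between 2 members over the 22 samples had a median of 0.79 over the 36 pairs, and 27 pairs were above 0.5. The points share library depth, cell mixture and, for the dated samples, the kind of title, so r is a description. SST-F and SS04031R, which stood apart from their groups, were among the 22 samples, and r was not computed without them. Arc was the exception, and its r with Egr1 was the lowest of all pairs (-0.41). Without this centring, Junb had a negative r with Dusp1 (-0.40) where the centred value was 0.88, since Junb was high and Dusp1 low in the dated samples. The genes most like the mean of the 9 members after centring, of 14557 compared, were Jun (0.96), Zfp36 (0.96), Ppp1r3b (0.94), Nfkbiz (0.94) and Atf3 (0.91). Of these, Jun, the AP-1 partner of Fos, Zfp36 and Atf3, a stress-induced factor, were on the list of other immediate early genes, and Nfkbiz, a regulator of NF-kappaB, was on that of dissociation-response genes. The 100 most alike genes held 7 of the first list and 8 of the second. With the microglia marker mean, centred r ranged from -0.33 for Arc to 0.54 for Fos.

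**Figure D4:**
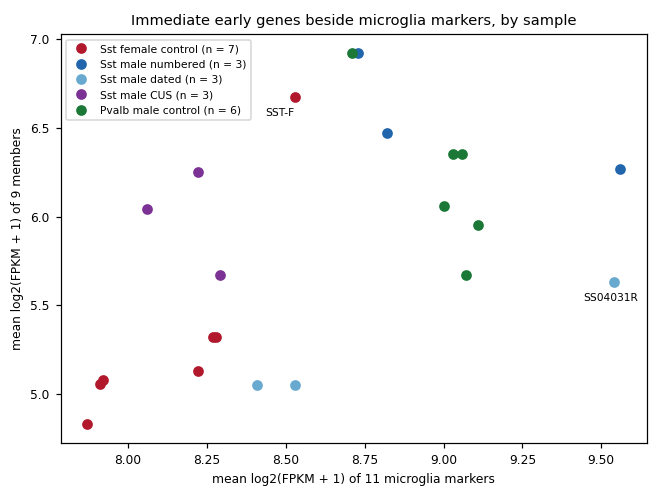
Mean log2(FPKM + 1) of 9 members against that of 11 microglia markers in each of the 22 samples, coloured by group. SST-F, at 6.67 for the members, lay above the other 6 females (4.83 to 5.32), and SS04031R was at 5.63 against 5.05 in both other dated controls.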

How the data were processed

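The FPKM values (23993 genes, 24 libraries) were deposited by the authors as 1 table, made by trimming the reads, aligning them to mm10 with HISAT2 and quantifying genes with StringTie, while the methods also mention TopHat2 with mm9 and the labels name TopHat2 and Cufflinks. Whether the batch removal they name (ComBat) was applied to these values is not stated. FPKM gives no reads per library, so depth is unknown and no counting interval is given, and a value of exactly 0 may be an estimate that failed. The authors' DESeq2 test on counts was not repeated.

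A pair of libraries in a group was averaged where the SD of its log2 ratios (genes above 5 FPKM in both) was below 10% of the SD in the second closest pair. Values were transformed to log2(FPKM + 1), a gene was kept where its mean in the compared samples exceeded 0.4 FPKM, and limma 3.58.1 (lmFit, eBayes with trend and robust) in R 4.3.3 gave two-sided tests, adjusted by Benjamini-Hochberg across every gene kept, with 0.05 as the threshold. The study counts mice in its comparison of the lines, but no label ties a library to an animal, so p-values measure the spread between these samples, which may be partly technical. The procedure was tested on simulated data. Python 3.11.15, pandas 2.3.3, numpy 2.4.6 and matplotlib 3.10.9 were used otherwise. Positions and the bases before start sites are those of RefSeq on GRCm38.p6.

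The members and lists were chosen with earlier results of these data known. Named were all members, the 3 largest rises and falls past the threshold in each list and comparison, marker genes, the 5 genes most like the members and genes at 0 in a whole group (also Crh, Nptx2, Vip, Fosl1 and Dusp5 in at least 1 group). A marker gene is not reported here and was left out of its list. Camk4 was named to complete a count. Alternatives covered the pseudocount (0.1 and 5), the filter (none and a mean above 1 FPKM), scaling to a common median, quantile normalization, every library as a sample, 1 fit over 5 groups, a microglia covariate, a replicate block, the start of the title as a term, other control sets and leaving out samples.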

Additional observations from a re-analysis of the deposited data

Results flagged for a closer look

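Members in groups of 4 to 10 samples were screened for a highest or lowest sample set apart from the rest by Dixon's criterion at 95%, which by chance marks about 1 group in 20. Of 29 groups of values screened, 10 were marked. The rate of 1 in 20 holds for normally distributed values and independent groups. The values here were FPKM without a log scale, and members varied together (median r 0.79). The 10 marks therefore cannot be set against that rate. In the female Sst controls (7 samples) SST-F was the highest sample in all 8 members marked. It had 312.9 FPKM of Fos (next 125.5), 131 FPKM of Fosb (next 53.0), 74.0 FPKM of Junb (next 42.3) and 1463.9 FPKM of Egr1 (next 703.6). It also had 42.6 FPKM of Egr2 (next 7.11), 34.1 FPKM of Nr4a1 (next 4.28), 53.5 FPKM of Ier2 (next 31.0) and 519.5 FPKM of Dusp1 (next 296.7). Nr4a1 was marked in both other groups, each time in an averaged pair. The SST0-M/SST1-M pair had 50.3 FPKM among 6 male Sst samples (next 8.52), and the PV0-M/PV2-M pair had 42.4 FPKM among 6 Pvalb samples (next 4.08).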

How the results depend on the processing

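Over 9 members, 4 comparisons and all alternatives, 639 fold changes were recomputed; 510 kept their direction and their side of the threshold, 37 newly passed it, 33 lost it and 59 turned sign. The percentages in brackets below are the share of all genes that passed in the same fit. Between the sexes of Sst controls, 3 members passed in the test as reported (3.41%). The count was 1 with no filter (2.08%) and 1 with quantile normalization (2.59%). It was 6 with every library as a sample (17.7%), 6 in 1 fit over 5 groups (8.53%) and 0 with the microglia covariate (0.367%). In 2 fits chosen after seeing the data, it was 6 without SST-F (12.4%) and 7 without SST-F and the SST0-M/SST1-M pair (22.0%). Leaving out each numbered male in turn gave 1 to 1 (0.692% to 7.55%). Between Sst and Pvalb controls (line), 1 passed as reported (10.2%). The count was 2 in 1 fit over 5 groups (18.9%) and 0 with the microglia covariate (0.587%). It was 6 with females only (25.1%), 0 with numbered males only (0.0912%) and 0 without the high-Xist Pvalb libraries (0.0622%). With numbered males without the pairs, chosen after seeing the data, it was 0 (4.10%). Leaving out each numbered male gave 1 to 1 (10.2% to 18.1%). In CUS, 0 passed as reported (0.00705%) and 6 against numbered males (16.1%). With the start of the title as a term, chosen after seeing the data, 2 passed (share given above). Leaving out each sample gave 0 to 1 (0.00707% to 0.113%). Between dated and numbered male controls (title kind), 4 passed as reported (4.11%). The count was 5 with a common median (4.47%), quantile normalization (7.81%) or the microglia covariate (4.04%). It was 6 with every library as a sample (12.5%) or 1 fit over 5 groups (25.4%). Leaving out each sample gave 1 to 5 (0.381% to 13.7%). The cause of these changes was not tested. The fits that leave samples out also have fewer samples, and the part of that was not tested either.

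The replicate block treated equal replicate numbers as pairs. The 12 same-numbered pairs had correlations of deviations from -0.057 to 0.193. These values cannot show whether same-numbered samples were handled together, and what the numbers stand for is not given. With the replicate block 0 members passed between the sexes (13 of 14443 genes in all, against 493) and 1 in line (1189 genes against 1478). Between the sexes an unadjusted limma p under 0.05 was then found for 7 of 9 members and 17.1% of all genes. The median log2 fold change of the members there was -1.67, against -1.31 as reported. No paired analysis was possible for CUS and title kind because those groups share no replicate numbers, and the start of the title, shared by 1 control and all CUS libraries, pairs no samples one to one.

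Signs turned as follows, in log2 fold change. Between the sexes, against dated males: Dusp1 1.83, Egr1 1.12, Egr2 0.73, Fos 0.027 and Fosb 0.57; against all males Dusp1 0.23; with every library Arc 0.039; with the microglia covariate Arc 0.019 and Junb 0.39; leaving out each numbered male in turn Arc -0.21 to 0.18. In line, with numbered males only: Dusp1 0.39, Egr1 0.41, Egr2 0.66, Fos 0.40 and Fosb 0.42, and the same without the pairs 0.27, 0.28, 0.76, 0.37 and 0.54. With the microglia covariate in line: Dusp1 0.119, Egr1 0.071, Egr2 0.23 and Fos 0.164. Nr4a1 was -0.22 without the high-Xist libraries. Ier2, at 0.003 as reported, was -0.003 with every library, -0.29 with females only, -0.07 with the replicate block, -0.074 without SST-F and both pairs, and -0.12 to -0.039 leaving out each numbered male. In CUS, against all, numbered and both-sex controls: Dusp1 -1.02, -2.62 and -1.14, Egr1 -1.01, -2.23 and -0.96, Egr2 -0.95, -2.34 and -0.59; Fosb -0.31 and -1.57 against all and numbered males, Fos -0.60 against numbered males, and Egr1 -0.008 without SST040241L; with the start of the title as a term Dusp1 -0.097, Egr1 -0.52, Ier2 -0.17 and Junb -0.33. In title kind, Arc was -0.018 with a pseudocount of 0.1, -0.19 with the microglia covariate and Ier2 0.095 with quantile normalization; leaving out each sample gave Arc -0.39 to 0.57 and Ier2 -0.45 to 0.099.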
